A study of Mus musculus with 2 samples.

Results

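Low-Gfap astrocytes of the mouse hippocampus are described here across 2 droplet single-cell RNA libraries, 1 from Mr1+/+ and 1 from Mr1-/- mice. Members were selected on measured counts: a barcode needed 300 genes or more, no more than 10% of its UMIs (unique molecular identifiers, 1 per captured transcript) from mitochondrial genes, UMIs of at least 4 of the 7 astrocyte genes Aqp4, Gja1, Ntsr2, Gjb6, Slc1a2, Slc1a3 and Aldoc, UMIs of at most 2 of the 6 genes Cldn5, Flt1, Vtn, Mog, Ermn and C1qa of other cell types, and 0 or 1 UMI of Gfap. Of 11605 cells that passed the first pair of limits, 1420 were members, 936 of them Mr1+/+ and 484 Mr1-/-. A further 190 cells (142 and 48) met the same marker limits with 2 or more Gfap UMIs and are called Gfap astrocytes below. Both groups of mice were 7 months old and untreated, and the labels call the mutants Mr1-/- without naming the allele, the background strain, the sex or the number of mice pooled. Hippocampal cells were isolated with a primary neuron isolation kit and sorted as DAPI-negative (live) and Draq5-positive (nucleated), and the 5' ends of transcripts were captured. Each genotype is 1 library, so no difference below has a replicate check, no test was possible, and every interval covers counting error only. Genotype cannot be told apart from the mice used, their dissection, the sort or the making of each library.

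Summed over members, the Mr1+/+ library gave 3075494 UMIs and the Mr1-/- library 1562135, with medians of 3092 and 3042 UMIs and of 1608 and 1553 genes per cell. The median mitochondrial share was 3.37% and 3.51%. The libraries shared 44 barcodes, of which 6 were a member in either library and 0 in both. Mr1, the gene that the mutants lack by their label, had 50 UMIs in Mr1+/+ members (16.3 CPM, where CPM is a gene's summed UMIs over all UMIs of the class, scaled to 1000000) and 0 UMIs in Mr1-/- members, a count that allows up to 1.92 CPM at 3 UMIs.

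Astrocytes clear glutamate and potassium from around synapses, exchange metabolites with blood vessels and neurons, and are coupled to each other through gap junctions. Gfap encodes an intermediate filament protein that is abundant in fibrous and reactive astrocytes, while many protoplasmic astrocytes of grey matter hold little of it. In the hippocampus Gfap is nevertheless common among astrocytes, and it is also made by the radial glia-like stem cells of the dentate gyrus. A low Gfap count in a droplet library therefore describes transcripts caught from a cell and not the protein in it.

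The genes that chose the members were at the following levels, given as a description only. Slc1a2, the main glutamate transporter of the forebrain, was at 5139 CPM in Mr1+/+ and 5352 CPM in Mr1-/- members, and had a UMI in 99.3% and 99.8% of them. Aldoc, the brain form of aldolase, was at 4648 and 4786 CPM. Slc1a3, the other glial glutamate transporter, was at 3131 and 3011 CPM, and Ntsr2, a neurotensin receptor, at 2699 and 2634 CPM. The gap junction proteins Gjb6 (connexin 30) and Gja1 (connexin 43) were at 1442 and 1200 CPM and at 1134 and 1075 CPM. Aqp4, the water channel of astrocyte endfeet, was the least detected of the 7, at 528 and 470.5 CPM and in 73.4% and 73.1% of members. All 7 markers were found in 610 and 299 members. Exactly 4 were found in 49 and 14 members, and 64 and 32 cells just outside the limit had 3. At the other limit, 42 and 21 members carried 2 genes of other cell types and 6 and 3 cells were left out with 3.

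Genes that the rule did not use bore the astrocyte label out, as a description. Reference classes were formed in the same libraries from cells with 4 or more markers of their own type and at most 2 of the 7 astrocyte genes: microglia, endothelial cells, mural cells (pericytes and smooth muscle) and oligodendrocytes. Gpr37l1, an orphan receptor of astrocytes, was at 4934 and 4884 CPM in members and at no more than 10.8 CPM in any reference class. Slc7a10, which carries D-serine and other small amino acids, was at 856 and 837 CPM against at most 1.10 CPM. The glial transcription factor Sox9 was at 362 and 377 CPM, and Lhx2, a forebrain patterning factor, at 164 and 188 CPM. Across lists, members were higher than all 4 reference classes in both libraries for 10 of 11 measured genes of glutamate and GABA uptake, 11 of 13 of potassium, water and ion transport, 11 of 12 of coupling and adhesion, 14 of 18 transmitter receptor and calcium genes and 16 of 18 genes of lipid carriage and sterol synthesis. Over all 11117 genes with 20 or more UMIs in members, 2993 were.

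**Figure D1:**
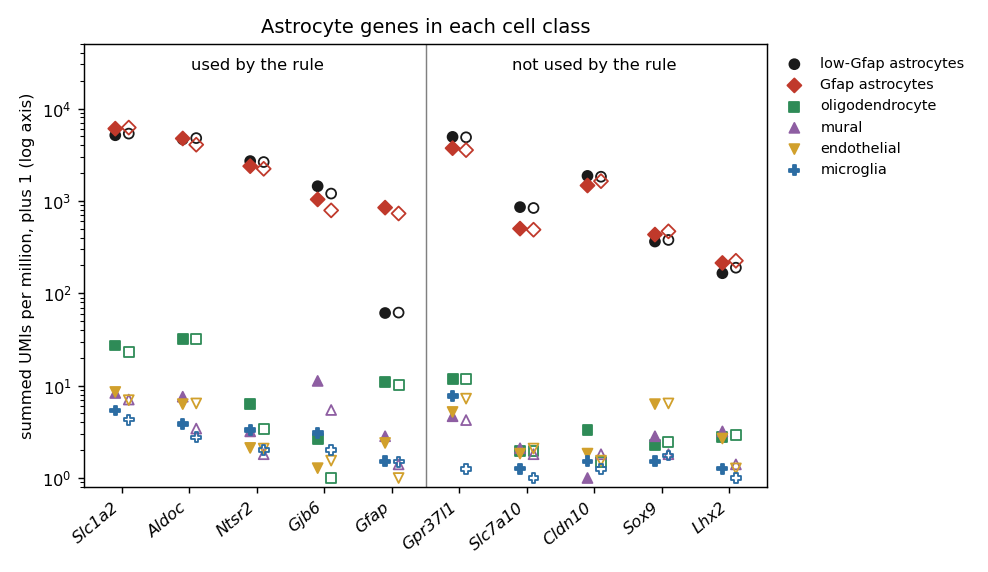
Level of 10 genes in 6 cell classes, in CPM plus 1 on a log axis; filled symbols are the Mr1+/+ and open symbols the Mr1-/- library. Both astrocyte classes lie above the 4 reference classes for all 10 genes. Gfap is at 60.2 and 60.8 CPM in low-Gfap and at 845 and 730 CPM in Gfap astrocytes, and at most at 9.94 CPM in a reference class.

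Secreted proteins and carriers of lipids and metals were abundant. Apoe, the main lipoprotein of the brain, was at 17734 and 16743 CPM, and Clu (clusterin) at 8362 and 7970 CPM. Cst3, a secreted protease inhibitor, was at 37904 and 40750 CPM and was above them all. The metallothioneins Mt1 and Mt3 were at 12757 and 12475 CPM and at 11741 and 12770 CPM. Glul, which turns glutamate into glutamine, was at 5075 and 4627 CPM in the 2 libraries. The channel Kcnj10, which buffers potassium, was at 155 and 168 CPM. These values stood close together in the 2 libraries, and none of the genes in this paragraph differed by 1.5-fold.

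Most astrocytes had no Gfap UMI. Among all 1078 Mr1+/+ astrocytes, 751 (69.7%) had 0 Gfap UMIs and 185 (17.2%) had 1, and 36 had 5 or more, with a maximum of 24. Among the 532 Mr1-/- astrocytes, 389 (73.1%) had 0, 95 (17.9%) had 1 and 9 had 5 or more, with a maximum of 8. The number of Gfap UMIs went with depth: median UMIs per cell were 3031, 3398 and 4124 at 0, 1 and 2 Gfap UMIs in the Mr1+/+ library and 2958, 3400 and 3687 in the Mr1-/- library. Just outside the Gfap limit stood 59 and 22 cells with 2 UMIs.

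**Figure D2:**
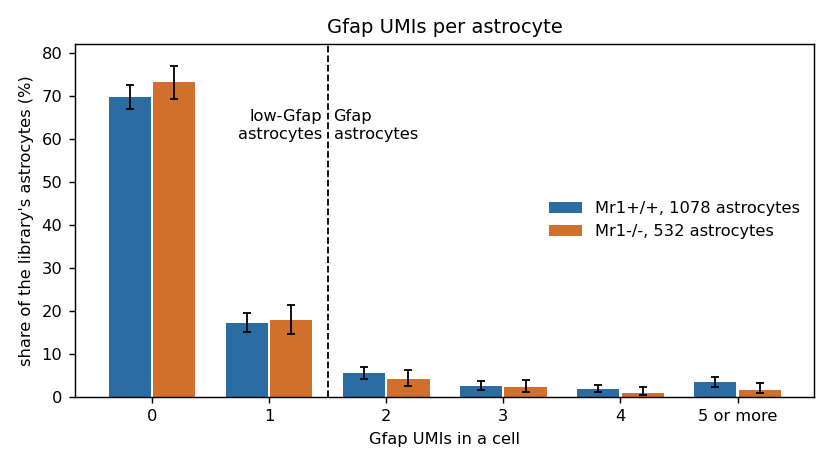
Share of the astrocytes of each library, in percent, with 0, 1, 2, 3, 4 or 5 and more Gfap UMIs; error bars are exact 95% binomial intervals. Cells left of the dashed line, with 0 or 1 UMI, are the low-Gfap astrocytes, and 0 UMIs is the most frequent count in both libraries (69.7% and 73.1%).

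Low-Gfap cells made up 86.8% (95% exact binomial interval 84.7 to 88.8) of Mr1+/+ and 91.0% (88.2 to 93.3) of Mr1-/- astrocytes, a difference of 4.15 percentage points (Newcombe interval 0.824 to 7.19). After each cell was thinned to 1500 UMIs and the rule applied again, the shares were 95.3% (885 of 929) and 96.1% (466 of 485) and their difference 0.819 points (-1.61 to 2.91). Few cells keep 2 Gfap UMIs at that depth, so the thinned share can show little. Thinning left out 114 and 25 members that were shallower than this.

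Shares of cells with a Gfap UMI are given as a description, since the rule used Gfap. In the Mr1+/+ library 19.8% of members had 1 and in the Mr1-/- library 19.6%, against 0.261% and 0.252% of microglia and 4.10% and 3.69% of oligodendrocytes, whose median depths were 3745 and 3634 and 4366 and 4182 UMIs. After thinning, 9.61% and 9.59% of members still had a Gfap UMI, and 1.81% and 1.28% of oligodendrocytes.

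Members made up a smaller share of the Mr1-/- library. Of 6327 Mr1+/+ cells that passed the filters, 936 were members (14.8%, interval 13.9 to 15.7). Of 5278 such Mr1-/- cells, 484 were (9.17%, 8.41 to 9.98), so the Mr1-/- minus Mr1+/+ difference was -5.62 points (-6.79 to -4.45). With endothelial cells left out of the total the shares were 19.1% and 13.0%. Gfap astrocytes also held a smaller share, at 2.24% and 0.909%. Dissociation and the sort can set such shares, and neither was measured here.

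A minority of members carried transcripts of a second cell type. UMIs of 4 or more markers of microglia, endothelial, mural, oligodendrocyte, ependymal or neuronal lists were found in 102 Mr1+/+ members (10.9%) and 48 Mr1-/- members (9.92%). These are called mixed cells here, a limit set after the data were seen. Markers of microglia were carried by 22 and 5 members, of endothelial cells by 20 and 18, of mural cells by 22 and 8, of oligodendrocytes by 20 and 6, of ependymal cells by 16 and 10 and of neurons by 11 and 1. The doublet caller Scrublet marked 77 of the 102 and 33 of the 48. Gfap astrocytes held 19 (13.4%) and 7 (14.6%) mixed cells, among them 10 and 5 with ependymal and 0 and 0 with microglial markers. Mixed cells were kept as the rule has it, and results that turn on them are given with and without them.

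Several of the genes that varied most from member to member were markers of other cell types. With each member thinned to 1500 UMIs, the variance divided by the mean (Fano factor) had a median of 1.04 over 2397 genes in both libraries, near the value for counting noise alone. Among the 12 genes with the highest factor in both libraries were Gm42418, Ptgds, Acta2, Tagln, Cst3, Malat1, Bsg, C1qb, Ly6c1 and Crip1. For the smooth muscle genes Acta2 and Tagln and the microglial gene C1qb, the 20th of members with the most of each held all its UMIs. Without mixed cells Acta2 was at 7.17 and 3.82 CPM in place of 201 and 316 CPM, and C1qb at 8.76 and 6.87 CPM in place of 252 and 107 CPM. Both genes are among the markers that define mixed cells, so lower levels without those cells follow from that choice. Cst3 was different, with UMIs in 99.0% and 99.8% of members and only 11.6% and 11.1% of its UMIs in the top 20th. Gm42418, a non-coding locus with factors of 53.6 and 40.7, overlaps AY036118, and its counts are uncertain for that reason.

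Next, low-Gfap astrocytes were set against Gfap astrocytes of the same library. The rule used Gfap of these cells, so this is a description of the 2 sides of the limit. Genes of protoplasmic astrocytes were higher on the low side, and genes of fibrous astrocytes and ribosomes were higher on the Gfap side. Ependymal genes were also higher there. Their summed level in members was far lower without mixed cells, which these genes help to define. Of 3169 genes that passed the filter on low values, 32 (1.01%) were at least 1.5-fold higher and 67 (2.11%) at least 1.5-fold lower in low-Gfap cells of both libraries, after adding 10 CPM to each level. Without mixed cells 12 genes were lower in place of 67.

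The gene highest on the low side was Etnppl (chr3:130617448-130637521), a lyase that breaks down phosphoethanolamine. It was at 128 CPM in low-Gfap and 56.2 CPM in Gfap astrocytes of the Mr1+/+ library (ratio 2.28, interval 1.64 to 3.25), and at 120 and 43.8 CPM in the Mr1-/- library (2.75, 1.42 to 6.10). Slc7a10 (chr7:35186385-35201114) was at 856 against 500.4 CPM and at 837 against 487 CPM, ratios of 1.71 (1.53 to 1.92) and 1.72 (1.40 to 2.13). Lfng, a glycosyltransferase that modifies Notch receptors, was at 311 against 179 CPM and at 309 against 156 CPM. Lrig1, a membrane protein that dampens growth factor receptors, was at 255 against 140 CPM and at 223 against 122 CPM. Both libraries gave the same order for each of these genes, as the choice of named genes required. The other named genes of this side were the galactosyltransferase B3galt2, the acid-sensing channel subunit Asic2, the homeobox factor Meis2, the histamine receptor Hrh1, the sterol reductase Tm7sf2, the adhesion molecule Kirrel3, the arginyltransferase Ate1 and Hint3. In the Mr1-/- library, with 48 Gfap astrocytes, the intervals of Meis2 and Tm7sf2 reached below 1.

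Without mixed cells, 10 of these 12 genes remained among the 12 highest. The newcomers were Tom1l1 and Folh1, and Lrig1 (280 against 162 CPM and 249 against 151 CPM) and Hint3 dropped out. Etnppl was then at 146 against 66.7 CPM and at 137 against 56.8 CPM. In the Mr1-/- library the intervals of Ate1, Meis2, Kirrel3, Folh1 and Tm7sf2 without mixed cells reached below 1.

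The protoplasmic list was uniform. All 15 measured genes were higher in low-Gfap astrocytes of both libraries, 14 of 15 without mixed cells, against 3680 of 11558 genes overall. Its median log2 ratio was 0.34 in the Mr1+/+ and 0.47 in the Mr1-/- library, against 0.02 and 0.05 over all genes with 20 or more UMIs. Slc7a10 and Lrig1 passed 1.5-fold in both. Btbd17 (log2 ratios 0.58 and 0.27), the secreted Itih3 (0.53 and 1.08), the GABA receptor subunit Gabrg1 (0.51 and 0.45) and the acyl-CoA ligase Acsl3 (0.37 and 0.47) lay below that limit in at least 1 library.

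Transport and signalling genes leaned the same way, with smaller medians. Higher on the low side in both libraries were 9 of 11 uptake genes, 10 of 13 ion transport genes, 9 of 12 coupling genes and 11 of 20 receptor genes. Over all genes, 3680 of 11558 were. Without mixed cells these were 7 of 11, 7 of 13, 7 of 12 and 12 of 18, against 3234 of 10396 genes overall. The ion transport medians were then 0.13 and 0.10 in place of 0.18 and 0.28. The cystine transporter Slc7a11 stood out with log2 ratios of 0.73 and 0.54, the AMPA receptor subunit Gria2 with 0.71 and 0.68 and the endothelin receptor Ednrb with 0.52 and 0.71. The metabotropic GABA receptor subunit Gabbr2 reached 0.89 and 1.56 from 29.9 and 33.9 CPM in members. The exceptions in the coupling list were Mlc1, which marks perivascular endfeet (-0.35 and -0.45), and the membrane protein Gpm6b (-0.29 and -0.42). Genes of glucocorticoid response were higher on the low side for 14 of 19, among them Tsc22d3 with 0.54 and 1.02.

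The lineage factors Olig1 and Olig2, known from oligodendrocyte precursors, were also higher on the low side. Olig1 was at 292 and 297 CPM in members and had log2 ratios of 0.80 and 0.81 over Gfap astrocytes. Olig2 was at 71.9 and 89.0 CPM with ratios of 0.62 and 0.64. Without mixed cells Olig1 was at 282 and 296 CPM and its log2 ratios were 0.63 and 0.87. Pdgfra, the defining receptor of the precursors, was at 9.10 and 7.04 CPM, and Gpr17 had 2 and 3 UMIs.

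On the Gfap side, 10 of 15 genes of the fibrous list measured in astrocytes (13 in members) were lower in low-Gfap cells of both libraries, 7 of them by 1.5-fold or more, against 3162 and 326 of all 11558 genes. Without mixed cells 7 of 13 were lower, 5 of them by 1.5-fold, against 2517 and 99 of all 10396 genes. The 2 that were higher included Agt (log2 ratios 0.70 and 0.14). The list medians were then -0.31 and -0.12 in place of -0.39 and -0.63. Vim, another intermediate filament gene, was at 229 and 243 CPM in members against 774 and 623 CPM in Gfap astrocytes. Mural and endothelial cells held more Vim, at up to 3408 and 1760 CPM, and without mixed cells the members were at 76.5 and 54.9 CPM against 213 and 309 CPM. C4b, a complement component, was at 32.8 and 36.5 CPM against 85.1 and 107 CPM. Id3, which keeps basic helix-loop-helix factors from binding DNA, was at 444 and 401 CPM against 584 and 813 CPM, past 1.5-fold in the Mr1-/- library alone. The other 5 past 1.5-fold were S100a6, Id1, Thbs4, Igfbp5 and the hyaluronan receptor Cd44, which was scarce in members (9 and 1 UMIs). S100a6 no longer was without mixed cells (log2 ratios -0.29 and 0.02).

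Among the 12 genes highest on the Gfap side were Cnmd, Ucma, Clec3b, Fam183b, 1500015O10Rik, Rsph1, Dynlrb2, Spint2, 1110017D15Rik, Odf3b and Meig1, several of which are known from motile cilia. Dynlrb2, a dynein light chain, was at 49.1 and 65.3 CPM in members and at 146 and 336 CPM in Gfap astrocytes. Rsph1, a protein of the ciliary radial spoke, was at 27.3 and 39.1 CPM and at 101 and 190 CPM. Without mixed cells Rsph1 had 0 CPM in members of both libraries and 3.61 and 6.31 CPM in Gfap astrocytes. Odf3b was then at 0 in all 4 groups. Cnmd stayed higher on the Gfap side, at 9.56 and 7.63 CPM in members against 63.1 and 151 CPM. Spint2, Meig1 and Fam183b, all scarce in members, also stayed higher there in both libraries, while 1110017D15Rik did not in the Mr1-/- library. In Gfap astrocytes without mixed cells these 3 were at 16.2 and 56.8, 14.4 and 44.2, and 12.6 and 12.6 CPM. Only 41 such Mr1-/- cells remained, so these levels rest on few UMIs. All 8 ependymal markers were lower in low-Gfap cells by 1.5-fold or more in both libraries. Their summed level was 528 and 621 CPM in members and 1185 and 2449 CPM in Gfap astrocytes. Without mixed cells the sums in members were 130 and 128 CPM, and of 2 markers still measured 1 was higher and 1 lower in both libraries. Ependymal markers help to define mixed cells, so the lower sums follow from that choice.

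Without mixed cells the 12 genes highest on the Gfap side were 6330403K07Rik, C4b, S100a10, Gm11681, Ass1, Lrp4, Tuba1a, Thrsp, Aldh1a1, Trim2, Odc1 and Ubr4. This order was drawn up after the data were seen. S100a10, a partner of annexins, was at 66.5 and 57.2 CPM in members against 144 and 151 CPM. Ass1, an enzyme of arginine synthesis, was at 91.2 and 83.2 CPM against 182 and 158 CPM. Thrsp, a gene of lipid synthesis, was at 420 and 516 CPM against 887 and 814 CPM. Aldh1a1, which makes retinoic acid, was at 41.4 and 52.7 CPM against 70.3 and 101 CPM. In each of these genes both libraries had the lower value in low-Gfap cells, as the way they were chosen required.

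Ribosomal protein genes were lower in low-Gfap cells for 70 of 81 measured genes (67 of 81 without mixed cells), against 3162 of all 11558 genes, with medians of -0.29 and -0.22 on the log2 scale. Gfap astrocytes were deeper, with medians of 4406 and 4130 UMIs per cell, and the part of depth in this was not tested. All 8 microglial markers were over 1.5-fold higher on the low side in both libraries, at a summed 1323 and 567 CPM against 137 and 117 CPM. That went with the 22 and 5 members with microglial markers, and without mixed cells the sums in members were 132 and 103 CPM. Microglial markers help to define mixed cells, so the lower sums follow from that choice.

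**Figure D3:**
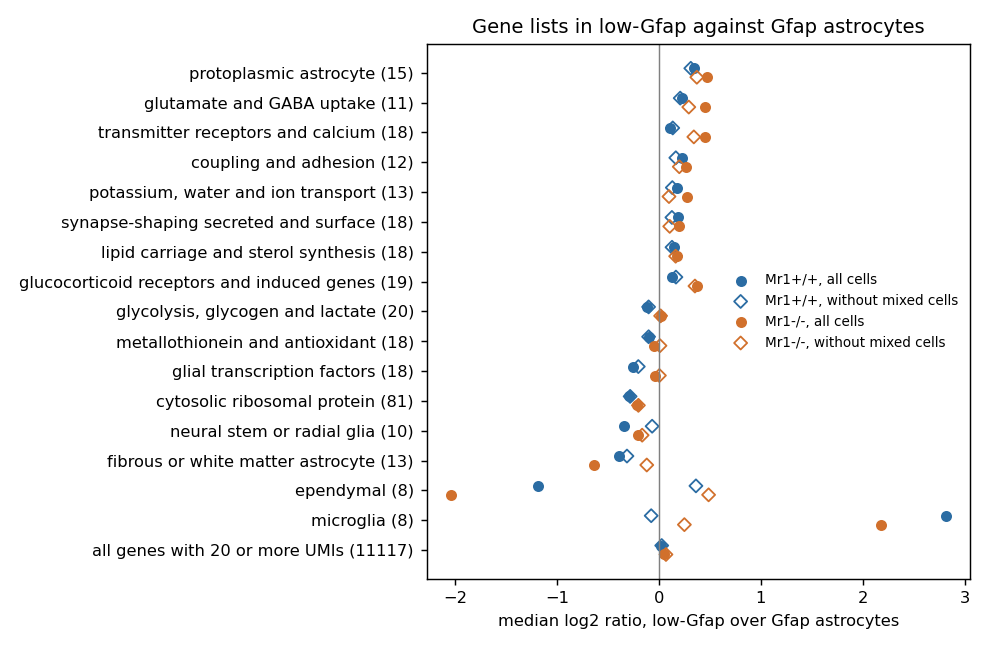
Median log2 ratio of low-Gfap over Gfap astrocytes for 16 gene lists and for all genes, in each library (number of genes measured in parentheses). Dots take all cells; open diamonds leave out mixed cells, where fewer genes of some lists reach 20 UMIs. The protoplasmic list lies at 0.34 and 0.47 and the fibrous list at -0.39 and -0.63. Without mixed cells these lie at 0.31 and 0.37 and at -0.31 and -0.12. The microglial list then lies at -0.08 and 0.25 and the ependymal list, by then 1 gene, at 0.36 and 0.49.

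Between the genotypes few genes of low-Gfap astrocytes differed in level. Of 3159 genes that passed the filter, 7 (0.222%) were at least 1.5-fold higher and 11 (0.348%) at least 1.5-fold lower in Mr1-/- members, and the median absolute log2 ratio was 0.10. Without mixed cells the counts were 4 and 11. Over the 11117 genes with 20 or more UMIs and no limit on level, 54 (0.486%) were higher and 157 (1.41%) lower by that measure. Tsc22d3, Dio2, Cebpd and Kcnn2 were among the lower genes, and Pola2 and Ube2v1 among the higher.

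Tsc22d3 (chrX:140539528-140600659) encodes GILZ, a leucine zipper protein induced by glucocorticoids. It was at 1120 CPM in Mr1+/+ and 682 CPM in Mr1-/- members, a ratio of 0.609 (interval 0.568 to 0.653), and had a UMI in 84.9% and 76.7% of members. Without mixed cells it was at 1245 and 737 CPM. The level was lower in the Mr1-/- library in every class examined: 770 and 331 CPM in Gfap astrocytes, 1302 and 780.0 CPM in endothelial cells, 252 and 137 CPM in microglia, 221 and 132 CPM in mural cells and 113 and 82.4 CPM in oligodendrocytes.

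Dio2 (chr12:90724552-90738438), the deiodinase with which astrocytes activate thyroid hormone, was at 93.0 and 50.6 CPM in members (ratio 0.544, 0.418 to 0.700). Gfap astrocytes had 93.7 and 34.1 CPM, and no reference class had over 1.10 CPM. Agt, the precursor of angiotensin, was at 533 and 371 CPM (0.695, 0.631 to 0.765), and it too was near 0 in the reference classes. Cebpd (chr16:15887286-15891031), a transcription factor of acute responses, was at 131 and 78.1 CPM (0.598, 0.484 to 0.733), and it was lower in endothelial and mural cells too (log2 ratios of -0.81 and -0.50). Kcnn2, a calcium-activated potassium channel, was at 147 and 86.4 CPM (0.588, 0.482 to 0.714), with at most 0.08 log2 units of difference in any reference class. Each of these genes kept its direction without mixed cells.

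Mpv17 (chr5:31140654-31154251), an inner membrane protein of mitochondria, had the lowest ratio among the 3159 filtered genes, at 79.7 and 36.5 CPM (0.458, 0.337 to 0.613). Mrps6 (chr16:92058270-92112227), of the mitochondrial ribosome, was at 145 and 79.4 CPM (0.549, 0.446 to 0.671), and Emc8, of the endoplasmic reticulum membrane complex, at 85.5 and 52.5 CPM. All 3 were lower in the Mr1-/- library in all 4 reference classes as well, with log2 ratios from -0.43 to -0.99. Mrps6 overlaps Slc5a3, Mpv17 overlaps Gm29609 and Emc8 overlaps Cox4i1 in the annotation, so reads of these pairs may be split between them. The other named genes on this side were Fam184a, Gm16286, the secreted neuritin Nrn1, the receptor phosphatase Ptprg and the acetyltransferase Nat8f7, with ratios from 0.538 to 0.626.

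On the higher side, Fasn (chr11:120805846-120824547), the fatty acid synthase, was at 111 and 165 CPM (1.49, 1.26 to 1.75), and Sptlc1, the first enzyme of sphingolipid synthesis, at 40.3 and 64.0 CPM (1.59, 1.21 to 2.08). Fasn differed by at most 0.10 log2 units in any reference class, while the log2 ratios of Sptlc1 ran from -0.15 in endothelial to 0.65 in mural cells. Pola2, a subunit of DNA polymerase alpha, was at 40.6 and 77.5 CPM (1.91, 1.47 to 2.47), and was higher in all 4 reference classes by 0.31 to 0.52 log2 units. Ndufaf8, an assembly factor of respiratory complex I, was at 61.5 and 97.3 CPM. The histone gene Hist2h2aa1 had the highest ratio among the filtered genes, at 34.1 and 68.5 CPM (2.01, 1.52 to 2.65), and is uncertain because histone genes have near-identical copies. Hmgn2, a chromatin protein, was at 218 and 330.3 CPM, but 162 of its 516 UMIs in Mr1-/- members came from 5 cells, and without mixed cells the ratio was 1.14. The remaining names were Ube2v1, Rab11fip4, Gm26917, Cdk2ap1, Ip6k1 and Gm11266, with ratios from 1.49 to 1.67. Gm11266 lies antisense to Nfib.

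Most gene lists had medians near 0 between the genotypes. Glucocorticoid receptors and induced genes leaned to 1 side: 18 of 19 measured genes had the lower level in Mr1-/- members, against 5982 of 11117 genes overall. Its median log2 ratio was -0.16, against -0.02 over all genes, and 2 of the 19 were past 1.5-fold. Without mixed cells 16 of 18 were lower and the median was -0.24. The same list had medians of -0.40 in Gfap astrocytes, -0.34 in endothelial cells, -0.42 in oligodendrocytes, -0.26 in mural cells and -0.19 in microglia.

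Besides Tsc22d3, the receptor gene Nr3c1 was at 168 and 136 CPM (0.810, 0.687 to 0.953), the clock gene Per1 at 53.7 and 39.7 CPM (0.740, 0.543 to 0.996) and the zinc finger gene Klf9 at 291 and 250 CPM (0.859, 0.761 to 0.968). Fkbp5, a chaperone that restrains the receptor, was scarce, at 10.4 and 4.48 CPM. Mt2 was at 1266 and 1170 CPM (0.924) and Mt1 at a ratio of 0.978. The exception was Nr3c2, the mineralocorticoid receptor, at 13.3 and 19.8 CPM (1.49, 0.903 to 2.43). Sgk1, a kinase induced by both steroid receptors, was at 76.4 and 26.9 CPM (0.352, 0.247 to 0.490), but oligodendrocytes held 2165 and 899 CPM of it, and members without mixed cells had only 5.98 and 3.05 CPM, so its value in members is mostly that of mixed cells.

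**Figure D4:**
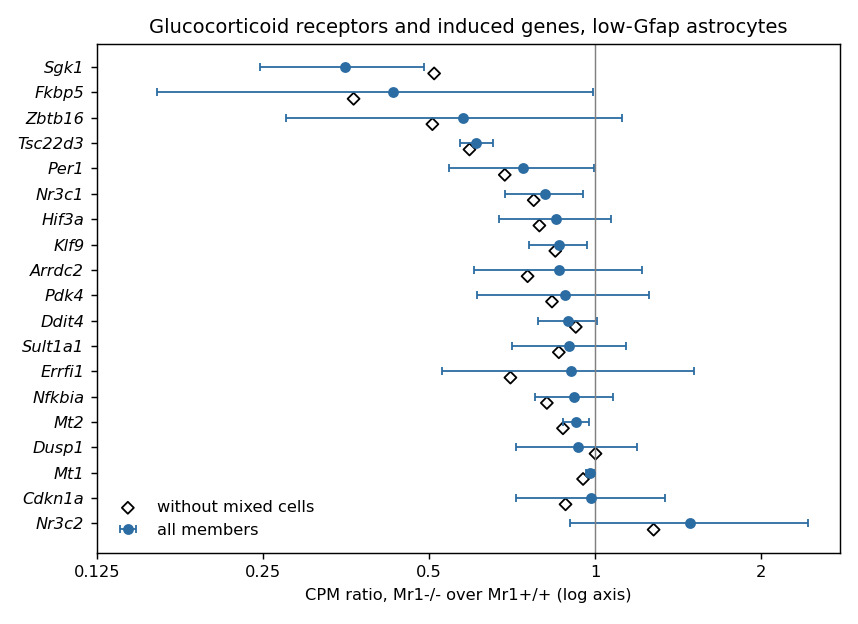
CPM ratio of Mr1-/- over Mr1+/+ low-Gfap astrocytes for 19 genes, on a log axis; bars are exact 95% intervals for counting error, and open diamonds are the ratios without mixed cells. With all members, each gene but Nr3c2 lies below 1, with Tsc22d3 at 0.609 and Mt1 at 0.978.

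Promoter windows of 3 genes of this list are shown because its genes leaned the same way and these windows hold the motif or its half-site. The search took the list with Gjb6, which the counts above leave out as a gene of the rule. Of these 20 genes, 18 matched a RefSeq window by symbol (28 windows, GRCm38.p6), of which the 250 bases before the start site were searched on both strands. A relaxed glucocorticoid response element, GNACA followed after any 3 bases by its reverse complement TGTNC, was in the windows of Mt1 and Sgk1 (2 of 28 windows, 7.14%), against 0.387% of all 32851 windows. The half-site AGAACA, which can overlap the longer motif, was in windows of Sgk1, Sult1a1 and Tsc22d3 (17.9% of windows, against 16.1% of all). A match describes letters and no bound site. The windows run 5' to 3' along the gene, with the motif in capitals (for Tsc22d3 the half-site, read on the other strand). They are at chr8:94178839-94179088 on the plus strand for Mt1, chr10:21993640-21993889 on the plus strand for Sgk1 and chrX:140600523-140600772 on the minus strand for Tsc22d3.
Mt1: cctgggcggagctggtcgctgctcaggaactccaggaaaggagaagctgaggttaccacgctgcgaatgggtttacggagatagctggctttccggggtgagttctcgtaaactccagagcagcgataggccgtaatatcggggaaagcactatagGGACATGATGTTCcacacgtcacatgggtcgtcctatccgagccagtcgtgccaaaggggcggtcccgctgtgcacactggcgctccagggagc
Sgk1: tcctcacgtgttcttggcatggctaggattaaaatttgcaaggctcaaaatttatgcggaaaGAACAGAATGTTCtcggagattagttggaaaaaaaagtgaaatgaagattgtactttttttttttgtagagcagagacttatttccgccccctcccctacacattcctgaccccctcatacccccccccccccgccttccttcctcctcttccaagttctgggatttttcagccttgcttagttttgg
Tsc22d3: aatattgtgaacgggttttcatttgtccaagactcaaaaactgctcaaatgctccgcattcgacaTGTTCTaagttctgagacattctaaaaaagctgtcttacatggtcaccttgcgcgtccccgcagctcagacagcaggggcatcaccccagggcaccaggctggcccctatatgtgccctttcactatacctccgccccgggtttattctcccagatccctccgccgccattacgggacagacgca
The Mt1 match begins 94 bases, the Sgk1 match 188 bases and the Tsc22d3 half-site 185 bases before the start site. The 3 genes differ in how members hold them: Mt1 is among the most abundant transcripts and had a ratio of 0.978, Tsc22d3 is common and lower in the Mr1-/- library, and Sgk1 was held mostly by mixed cells.

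Stress and clock lists were less uniform. Over all genes, 5982 of 11117 were lower in Mr1-/- members, and 5334 of 10057 without mixed cells. Heat shock genes were lower for 9 of 13 (median -0.20), with Hsp90aa1 at 344 and 298 CPM and Hspa4 at 90.4 and 71.7 CPM, and heat shock medians were between -0.19 and -0.27 in the 4 reference classes. Immediate early genes, which stress of dissociation can induce, were lower for 11 of 14 (median -0.14), with Junb at 39.0 and 22.4 CPM and Rhob at 536 and 406.5 CPM. Without mixed cells the immediate early median was 0.00 with 5 of 12 lower, while Junb was still at 19.9 and 10.7 CPM. Clock genes were split, 9 lower and 7 higher of 16, near the share over all genes.

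Lists of transport, coupling and signalling had medians close to that of all genes, of which 5982 of 11117 were lower in Mr1-/- members. Medians were -0.03 for uptake, 0.00 for ion transport, -0.06 for coupling (10 of 12 lower) and -0.01 for receptors, and no measured gene of these 4 lists passed 1.5-fold. In the synapse-shaping list 14 of 18 genes were lower (median -0.07), with Gpc6, a glypican that promotes synapses, at 64.1 and 40.3 CPM (0.630, 0.466 to 0.840), and Chrdl1, which matures them, at 31.5 and 19.2 CPM (0.609, 0.390 to 0.925). Its abundant genes differed less: Sparcl1 was at 5984 and 5683 CPM and Mfge8 at 3148 and 2874 CPM. The protoplasmic list was lower for 11 of 15 genes (median -0.08, and -0.16 without mixed cells).

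Metabolic lists held single genes that stood apart. In glycolysis Gapdh was at 3949 and 4994 CPM (1.26, 1.23 to 1.30), and it was higher by 0.20 to 0.30 log2 units in the 4 reference classes too. In sterol synthesis Msmo1 was at 766 and 613 CPM (0.800, 0.742 to 0.863) and Cyp51 at 141 and 112 CPM (0.797, 0.665 to 0.953), while the regulator Srebf1, which also drives fatty acid synthesis, was at 204 and 240.1 CPM (1.18, 1.03 to 1.34). The list medians were 0.06 and -0.03. Mitochondrially encoded genes had a median of 0.03, with mt-Atp8 at 4881 and 8328 CPM and mt-Atp6 at 3723 and 1427 CPM. These 2 genes overlap and lie on 1 transcript, so their reads may have been assigned differently.

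Lists of other cell types differed by more than the astrocyte lists. In members all 8 microglial markers were lower in the Mr1-/- library (median -1.12), all 10 oligodendrocyte markers were lower (-0.52; summed 1817 and 1261 CPM) and 7 of 8 endothelial markers were higher (0.68; 1452 and 2223 CPM). Without mixed cells these medians were -0.20 over 4 genes, -0.28 over 6 and -0.18 over 3. Mixed cells were defined by markers of these types, so lower levels without them follow from that choice. Of the sums that remained, that of microglial markers was at 132 and 103 CPM in the members left and at 85.9 and 72.4 CPM in endothelial cells. Interferon genes were higher for 7 of 10 (median 0.19), at a summed 364 and 431 CPM, and without mixed cells 4 of 8 were. Of the reactive lists, the pan-reactive genes were higher for 4 of 6 (median 0.14), against 5135 of 11117 genes overall. Without mixed cells 2 of 4 were, with a median of 0.03. Genes of the A1-type list were higher for 7 of 11 and of the A2-type list for 1 of 4 (medians 0.02 and -0.05). Serpina3n was scarce, at 5.20 and 7.68 CPM.

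**Figure D5:**
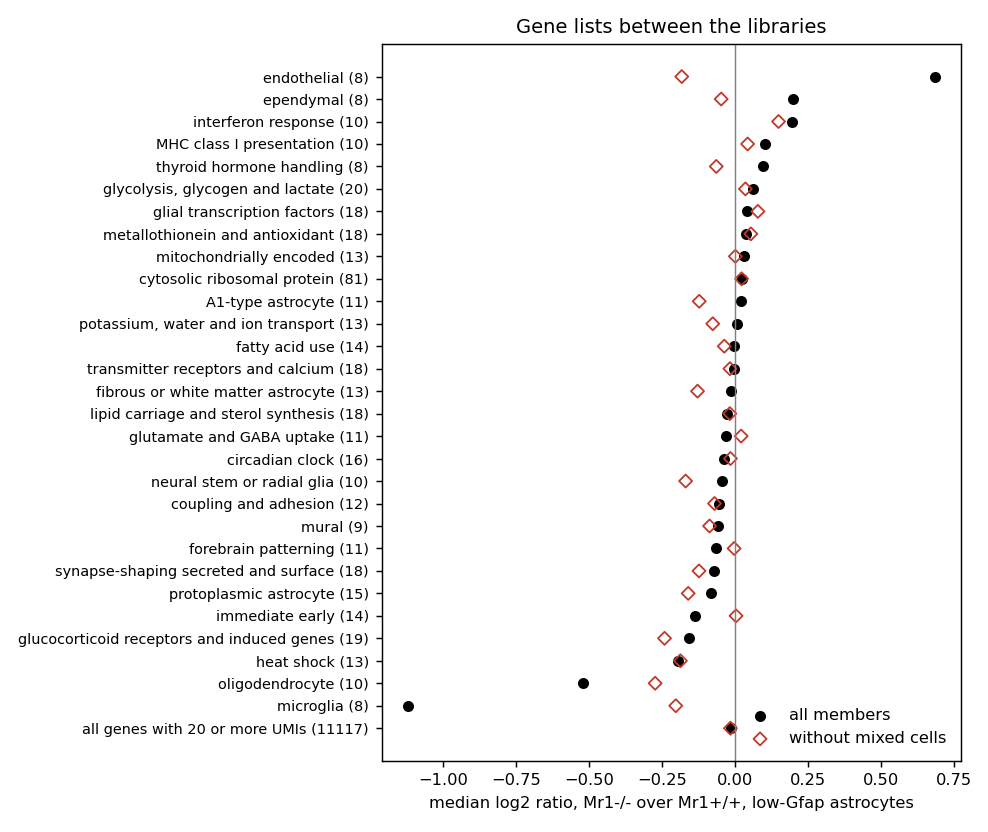
Median log2 ratio of Mr1-/- over Mr1+/+ low-Gfap astrocytes for each list with 8 or more measured genes (number in parentheses) and for all genes. Black dots take all members and red diamonds leave out mixed cells, where fewer genes of some lists reach 20 UMIs. The microglial and endothelial lists, at -1.12 and 0.68, lie at -0.20 (4 genes) and -0.18 (3 genes) without mixed cells, and the glucocorticoid list at -0.16 with and -0.24 without them.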

How the data were processed

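The deposited matrices hold UMI counts per gene and barcode, raw and not normalized, made by the authors with Cell Ranger (3.1.0 per the file headers; 5.1.0, with STAR and mm10, per the submitters' processing notes). The rule that kept barcodes and the annotation release are not given in the sources used here. Members and gene lists were chosen with earlier results of these data known. UMIs were summed per class and library and scaled to CPM. With 1 library per genotype no test was run. Intervals are 95% Clopper-Pearson, Newcombe, Poisson or conditional binomial intervals. Counts of differing genes were made after adding 10 CPM, over genes that averaged 50 CPM or more, had 50 UMIs or more and reached 0.2 times the level of the highest reference class. Cells were thinned to 1500 UMIs where depth mattered (Python 3.11.15, scanpy 1.11.5). Lists took genes with 20 UMIs. Log2 ratios carry the same 10 CPM. The named genes are the 12 at each end of each comparison, the 12 most variable, and in each list the members with the most UMIs and the extreme ratios. Mitochondrial, ribosomal and haemoglobin genes and the 14 genes of the rule were left out of the counts. Doublets were kept, and Scrublet served as an alternative. Gene positions are from GENCODE M21 (GRCm38). The ratio script was tested on simulated data. Some of the named genes are not reported here.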

Additional observations from a re-analysis of the deposited data

Results flagged for a closer look

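Gm26917, a long non-coding RNA gene, differed between the genotypes in opposite directions in the 2 astrocyte classes. Its Mr1-/- over Mr1+/+ ratio was 1.54 (1.38 to 1.72) in low-Gfap astrocytes and 0.609 in Gfap astrocytes, at 238 and 366 CPM and at 704 and 429 CPM. The difference between the classes was not tested, and the Mr1-/- Gfap astrocytes were only 48 cells. Gm26917 (chr17:39843013-39846341) lies next to Gm42418 (chr17:39846958-39848788), whose counts are called uncertain above. In Mr1-/- low-Gfap astrocytes 197 of its 571 UMIs came from 5 cells.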

How the results depend on the processing

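The share of low-Gfap cells among astrocytes differed by 0.819 points after thinning. Genes higher in Mr1-/- numbered 19 thinned, 0 with 50 CPM added, 16 at a 20 CPM filter, 37 unfiltered, 13 without the class limit and 4 without mixed cells, an alternative chosen after seeing the data. Lower genes numbered 22, 2, 22, 68 and 28 under the first 5. Genes higher in low-Gfap than in Gfap astrocytes numbered 16 with 5 markers, 21 at 5% mitochondrial UMIs, 52 thinned, 8 with 50 CPM added, 58 at 20 CPM and 98 unfiltered. Lower ones numbered 21 with 5 markers, 32 with 50 CPM added, 162 at 20 CPM, 314 unfiltered and 12 without mixed cells. List medians past 0.1 either way that changed sign were pan-reactive (-0.14 with at most 2 UMIs of other-class genes, -0.28 without Scrublet doublets), neuron (0.042 without Scrublet doublets), OPC (0.15 thinned, 0.12 with cells weighted equally) and neuroblast (-0.36 at 0 Gfap UMIs). Without mixed cells they were immediate early (0.0020), endothelial (-0.18) and ependymal (-0.049). The causes were not tested. No paired analysis was possible because each genotype is 1 library, which leaves a single pair.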
